A study of Rattus norvegicus with 64 samples.

Results

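Liver transcripts of vehicle-treated Sprague Dawley rats were compared between 2 collection times, in the absence of the toxicant that the study was built around. The libraries were those labelled liver and vehicle, 8 from rats killed 10 h and 8 from rats killed 5 h after the saline vehicle, which makes 16 of the 64 libraries in all. The other 48 are the livers of rats given bromobenzene at 0.4 g/kg, a solvent used as a model liver toxicant, and the kidneys of both sets of rats at the same times. By the series description of 32 rats, each library stands for a different liver of an outbred stock, and different rats were sampled at each time, so a change is a difference between animals and not a course followed in 1 animal. Sex, age, the hour of dosing, the light schedule and access to food are not in the labels used here. Hours since the injection, clock time and time since the last meal therefore cannot be told apart.

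The rodent liver changes its transcripts over the day. A cell-autonomous clock, in which transcription activators drive the genes of their own repressors, runs in hepatocytes, and feeding, fasting and adrenal hormones add their own rhythms to the enzymes of sugar, lipid, bile acid and drug metabolism. An injection with saline is also a handling stress. For these reasons control groups taken at different hours can differ without any toxicant. The vehicle livers give the size of the difference between these 2 groups, and what produced it was not tested. The deposited tables identify features by Ensembl transcript IDs and pair none of them with a gene, and the gene table used here matched 0 of the 31715 IDs. Transcripts are therefore described by level, length, organ and response, the lists of clock, metabolic and cell type marker genes could not be applied, and the liver label was not checked against marker genes.

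Depth overlapped between the times. It averaged 21.99 ± 2.38 mega-counts of estimated counts (SD, n = 8) at 10 h and 22.6 ± 2.85 at 5 h, and 20569 ± 157 and 20774 ± 395 transcripts had at least 1 count. Transcripts enriched in kidney held 0.226% ± 0.0161 of the liver counts at 10 h and 0.217% ± 0.0283 at 5 h. Of 7 such measures per library, the share of counts taken by the 100 most abundant transcripts was the only one to differ at an unadjusted p under 0.05. It was 47.1% ± 1.23 at 10 h and 48.6% ± 1.42 at 5 h (two-sided exact permutation p = 0.0432, adjusted over the 7 measures 0.302). In 1 library at 5 h, replicate 3, many time-dependent transcripts lay nearer to the 10 h livers than in the other 7. Its values are given below, and without it 1723 transcripts were called in place of 1634.

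Between 10 h and 5 h, 1634 of 17535 transcripts tested differed in vehicle liver (9.32%). Of these, 758 rose at 10 h (4.32%) and 876 fell (5.00%), by edgeR's quasi-likelihood test at a Benjamini-Hochberg adjusted p under 0.05. Most changes were modest. The median change was 1.41-fold among the risers and 1.49-fold among the fallers, and 458 risers and 441 fallers changed by under 1.5-fold. At least 2-fold changes were found in 142 risers and 212 fallers, at least 4-fold changes in 34 and 53, and at least 8-fold changes in 16 and 12.

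In 536 of the 17535 transcripts (3.06%) no 10 h library overlapped any 5 h library in counts per mega-count of the library (CPM), 307 higher (1.75%) and 229 lower (1.31%). This held for 293 of the 758 risers and 224 of the 876 fallers that passed the test. Separation was not limited to large changes, since 213 of 616 risers and 129 of 664 fallers that changed by less than 2-fold had no overlap. Of changes of 2-fold or more, 80 of 142 risers and 95 of 212 fallers had no overlap, and in the others at least 1 rat of one time lay within the range of the other. The median SD between rats of one time was 0.18 at 10 h and 0.20 at 5 h for the risers, on the log2 CPM scale, and 0.24 and 0.23 for the fallers. Over all tested transcripts the median SD was 0.28 at both times. The test favours transcripts with a small spread, so a smaller SD among those called is partly fixed by the choice.

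**Figure D1:**
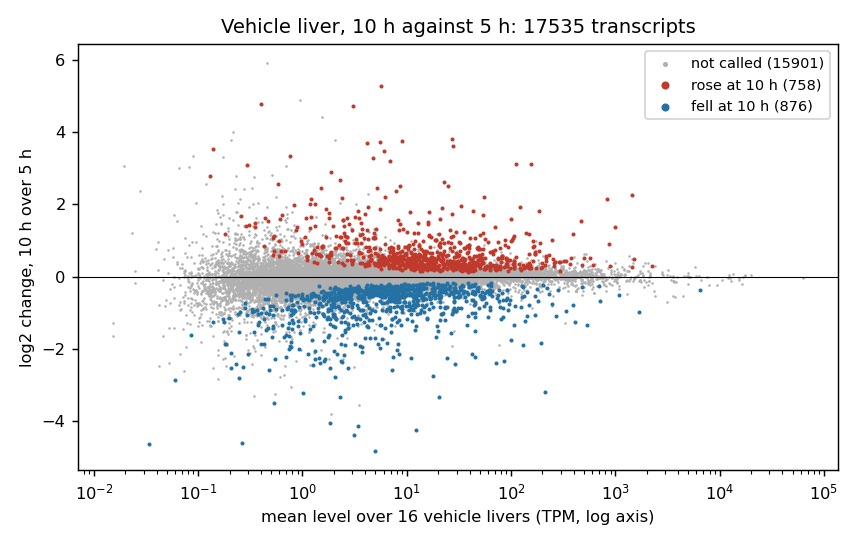
Log2 change between 10 h and 5 h vehicle livers (vertical axis) against the mean level over the 16 vehicle livers in TPM (horizontal log axis), 1 point per transcript of 17535. The 758 transcripts that rose and the 876 that fell are coloured, and the largest called changes lie below 100 TPM.

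No transcript was switched fully on or off. None had a count in all 8 livers of one time and in none of the other, and 1 transcript of the 1634 called stood at or below 3 counts in every 10 h liver. The lower group averaged under 10 counts for 24 risers and 48 fallers. Such transcripts entered the test through the group in which they were high.

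The largest rise among transcripts with a mean of at least 5 CPM was that of ENSRNOT00000056322.3, which is 1417 bases long. Its level at 10 h was lowest at 3.46, had a median of 11.9 and was highest at 17.6 TPM (a level corrected for transcript length, with the same sum in every library), against 0.0432, 0.186 and 0.740 TPM at 5 h. Every 10 h liver lay above every 5 h liver, and the highest 5 h value and the lowest 10 h value both came from the libraries numbered replicate 3 of their group. The 5 h levels rest on 1 to 15 estimated counts per library and those at 10 h on 67 to 433. The log2 change was 5.28 (SE 0.47, edgeR adjusted p = 1.84e-09).

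ENSRNOT00000036051.6, of 1191 bases, had the second largest rise above the same 5 CPM and a higher level. At 10 h its lowest, median and highest levels were 32.8, 50.8 and 63.9 TPM, and at 5 h they were 0.689, 2.77 and 9.85 TPM. The 10 h livers were close to each other and the 5 h livers spread over more than a 10-fold range, again with 5 h replicate 3 on top and without overlap. The log2 change was 3.80 (SE 0.40, edgeR adjusted p = 4.08e-08).

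The largest fall was that of ENSRNOT00000046313.4, of 2973 bases. It stood at a lowest, median and highest level of 0.126, 0.354 and 0.497 TPM at 10 h, and at 2.76, 10.4 and 13.9 TPM at 5 h. The lowest of the 5 h livers was once more replicate 3, and it was still above all 10 h livers. The log2 change was -4.82 (SE 0.43, edgeR adjusted p = 1.97e-09).

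ENSRNOT00000059571.2, of 4273 bases, had the second largest fall above 5 CPM and the smallest p-value of the 4. Its lowest, median and highest levels were 0.126, 0.300 and 0.394 TPM at 10 h, and 3.02, 5.73 and 10.2 TPM at 5 h. The 2 groups did not overlap and replicate 3 was again the lowest at 5 h. The log2 change was -4.38 (SE 0.26, edgeR adjusted p = 5.4e-13).

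**Figure D2:**
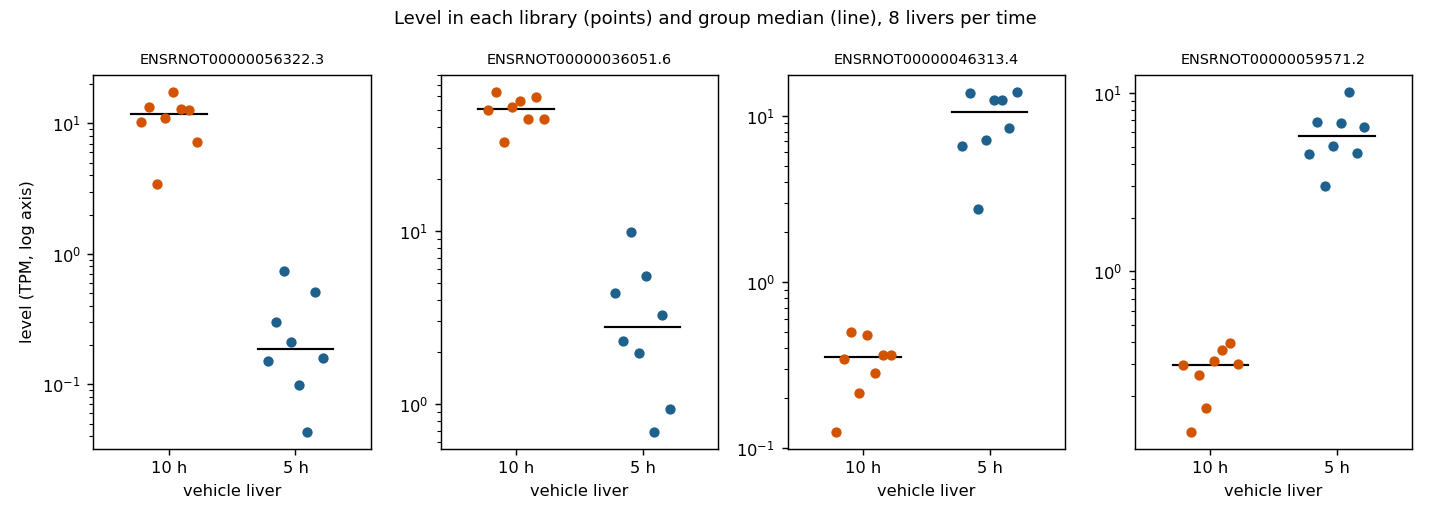
Level in TPM (log axis) of the 2 transcripts with the largest rise and the 2 with the largest fall, with 8 livers at 10 h on the left and 8 at 5 h on the right of each panel. Points are libraries, lines are medians, and no 10 h liver overlaps a 5 h liver in any of the 4 panels.

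Library numbers were split here into 2 runs, 1 to 18 and 19 to 32, which the labels do not call a batch. The first run holds 6 livers of 10 h and 5 of 5 h, and the second run 2 and 3. In the first run the 5 h livers are numbered 3 to 7 and the 10 h livers 13 to 18. Time and library order cannot be told apart there, and a covariate for the run does not separate them. All 4 transcripts changed in the same direction within both runs. ENSRNOT00000056322.3 gave log2 changes of 5.22 in the first run and 5.29 in the second, and ENSRNOT00000036051.6 gave 3.38 and 4.92. The fallers gave -4.67 and -4.99 for ENSRNOT00000046313.4, and -4.31 and -4.36 for ENSRNOT00000059571.2. The 4 were chosen over these same libraries, so the values within runs are a description. With the run as a covariate 1635 transcripts were called, of which 1563 were among the 1634 and had the same direction. The first run alone called 701 and the second run alone 116, of which 676 and 114 were among the 1634 with the same direction.

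Direction varied with level. Among transcripts of 10 to 100 TPM, 408 rose and 286 fell of 4809 tested (8.48% and 5.95%), and among those of 100 to 1000 TPM, 71 rose and 32 fell of 964. Less abundant transcripts gave the opposite balance. Of 7908 transcripts at 1 to 10 TPM, 243 rose and 459 fell, and of 3728 under 1 TPM, 31 rose and 96 fell. The median log2 change of all tested transcripts was -0.01, that of the transcripts under 1 TPM was -0.11, and that of the transcripts at 10 to 100 TPM was 0.05.

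Of the most abundant transcripts, 126 at 1000 TPM or more, 5 rose and 3 fell (6.35% called, near the 9.32% of all tested), and the median of their log2 changes was 0.00. The risers had a median level of 15.6 TPM and the fallers of 6.46 TPM, against 4.60 TPM for all tested transcripts. The balance of risers and fallers in each of the 4 bands below 1000 TPM went the same way in all 13 alternatives. These varied the tool, scaling, filter, unit, samples, run and length trend. In the band of 1000 TPM or more the balance did not hold (5 rose and 6 fell with DESeq2). The median log2 changes depended on the length trend of each library. With it as a covariate they were -0.04 under 1 TPM and 0.03 at 10 to 100 TPM. That at 100 to 1000 TPM went from 0.05 to -0.01.

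**Figure D3:**
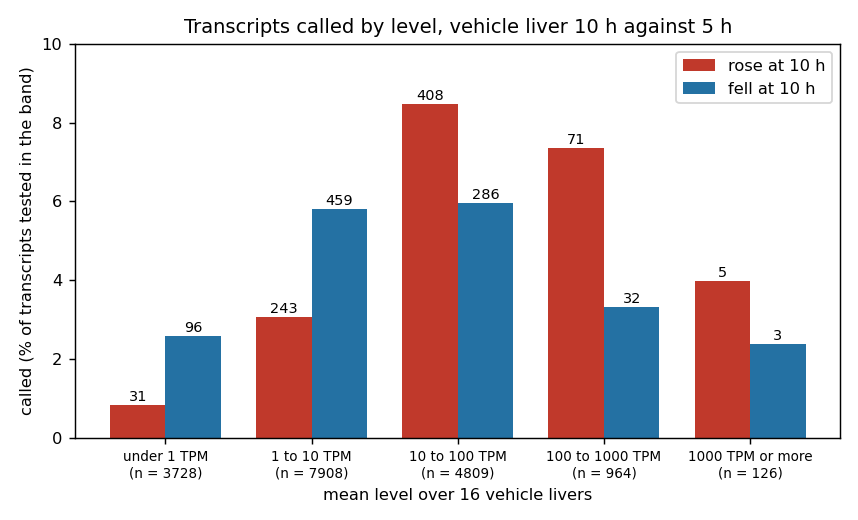
Percent of the tested transcripts that rose (left bar of each pair) or fell (right bar) at 10 h, in 5 bands of mean level over the 16 vehicle livers, with the number of transcripts above each bar. Falls outnumber rises under 10 TPM, and rises outnumber falls from 10 to 1000 TPM.

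The called transcripts held a small part of the transcript pool. The risers held 4.71% ± 0.204 (SD, n = 8) of all TPM at 10 h and 3.03% ± 0.247 at 5 h. The fallers held 2.15% ± 0.105 at 10 h and 3.35% ± 0.344 at 5 h. No test is given for these shares, because the transcripts were chosen on the same libraries. The 5 h replicate 3 held 3.60% in the risers, where the other 5 h livers ranged from 2.82% to 3.07% and the 10 h livers from 4.40% to 4.94%. A few transcripts carried much of the shift. Summed over the risers, 21 transcripts gave 50% of the change in TPM, and 15 gave 50% over the fallers.

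Direction also varied with transcript length. Of the 4388 shortest transcripts tested, up to 1399 bases, 141 rose and 115 fell, and their median log2 change was 0.03. Of the 4384 longest, over 3391 bases, 171 rose and 284 fell, with a median of -0.07. The trend of levels with length differed between single livers of both times. Its slope per library, in log2 CPM per doubling of length, averaged -0.0182 ± 0.0508 at 10 h and 0.0142 ± 0.0524 at 5 h (two-sided exact permutation p = 0.225, adjusted over the 7 measures 0.418). With this slope as a covariate, 272 of the longest rose and 324 fell, and the median there was -0.01. Of the shortest, 185 rose and 180 fell, and the median turned to -0.01. The slope was computed from the counts of these same libraries, so the covariate takes out a trend with length by construction. That the 2 ends no longer differed in median at this precision was largely fixed by this choice. In the second run alone, 6 of the shortest rose and 8 fell. With the covariate 2097 transcripts were called in all. Of those, 1596 were among the 1634 with the same direction.

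Organ bias was taken from the bromobenzene libraries of both organs, which are not among the 16 libraries compared. The bromobenzene livers did share the fit of the vehicle comparison, and so its filter, scaling and estimates of spread. Of 5406 transcripts that liver and kidney hold at similar levels, within 2-fold, 347 rose and 326 fell (12.4% called, against 9.32% of all tested). The class has a floor of 5 CPM that all tested transcripts do not share. With only transcripts of at least 5 CPM tested, 368 of its 5341 members rose and 430 fell, against 1521 called of 10035 in all. The difference in share therefore depends on that floor. Scaling and spread were estimated anew in that fit, where the median log2 change of the class was 0.01 and the direction turned. The median log2 change of the 5406 was 0.03. Among 393 liver-enriched transcripts, at least 16-fold higher in liver, 20 rose and 20 fell (10.2% called). Their median log2 change was 0.00. Among 482 kidney-enriched transcripts that liver still held above the filter, 9 rose and 20 fell (6.02% called), and their median log2 change was -0.07. Only 72 of them reached a mean of 5 CPM in liver, of which 4 rose and 3 fell with only such transcripts tested, too few to read a direction from. Scaling by library totals alone gave 27 risers and 16 fallers among the liver-enriched, and the fit with the floor of 5 CPM gave 21 and 27. Of the 482, 294 stood under 1 TPM in liver, and 1 of those rose and 10 fell. In bulk tissue, fewer cells of a type and less RNA per cell cannot be told apart.

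The same interval was examined in the livers of rats given bromobenzene, which share no library with the vehicle livers but were in the same fit. There, 1829 of 17535 transcripts differed between 10 h and 5 h (10.4%), 969 higher (5.53%) and 860 lower (4.90%). Of the 758 vehicle risers, 276 were called higher there too (36.4%), 22 lower and 460 neither, and the median of their log2 changes was 0.22. Of the 876 vehicle fallers, 246 were called lower there too (28.1%), 16 higher and 614 neither, with a median of -0.20. The shared risers made up 28.5% of the 969, and the shared fallers 28.6% of the 860. Regardless of the test, 607 of the 758 risers and 687 of the 876 fallers had the same sign in both sets of livers. The median log2 change over all tested in bromobenzene livers was -0.01, and the share with equal signs over all tested is not given here. With libraries scaled by their totals alone, the bromobenzene calls split as 1835 higher and 488 lower, around a median log2 change of 0.09 over all tested. The shared risers then numbered 394 and the shared fallers 184, and 658 risers and 559 fallers had the same sign.

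The difference between the 2 sets of livers was tested directly. It passed for 607 of the 17535 transcripts (3.46%), positive for 330 (1.88%) and negative for 277 (1.58%) as bromobenzene minus vehicle, and for 130 of the 758 vehicle risers and 161 of the 876 vehicle fallers. Because these were chosen for their change in vehicle livers, a smaller change in the other set is partly fixed by the choice, and the counts are given as a description. Of the 130 risers, 126 had a less positive or a negative change after bromobenzene and 4 a more positive one. Their median log2 change was -0.22 in bromobenzene livers and 0.83 in vehicle livers. Of the 161 fallers, 156 had a less negative or a positive change and 5 a more negative one, with medians of 0.13 in bromobenzene livers and -0.58 in vehicle livers. All 22 risers and 16 fallers called in opposite directions passed the test of the difference.

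The 4 named transcripts moved the same way in both sets of livers. They were chosen for large changes in vehicle liver, so a smaller change after bromobenzene is partly fixed by the choice. The p-values of the differences are a description. ENSRNOT00000036051.6 passed the test of the difference, with a log2 change of 1.36 after bromobenzene against 3.80 after vehicle (log2 difference -2.44, SE 0.52, edgeR adjusted p = 0.00595). Its median level was 32.2 TPM at 10 h and 9.66 TPM at 5 h after bromobenzene, against 50.8 and 2.77 TPM after vehicle. ENSRNOT00000056322.3 changed by 3.37, ENSRNOT00000046313.4 by -3.25 and ENSRNOT00000059571.2 by -3.63 on the log2 scale after bromobenzene. Their differences from the vehicle livers did not pass (edgeR adjusted p = 0.103, 0.115 and 0.264).

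**Figure D4:**
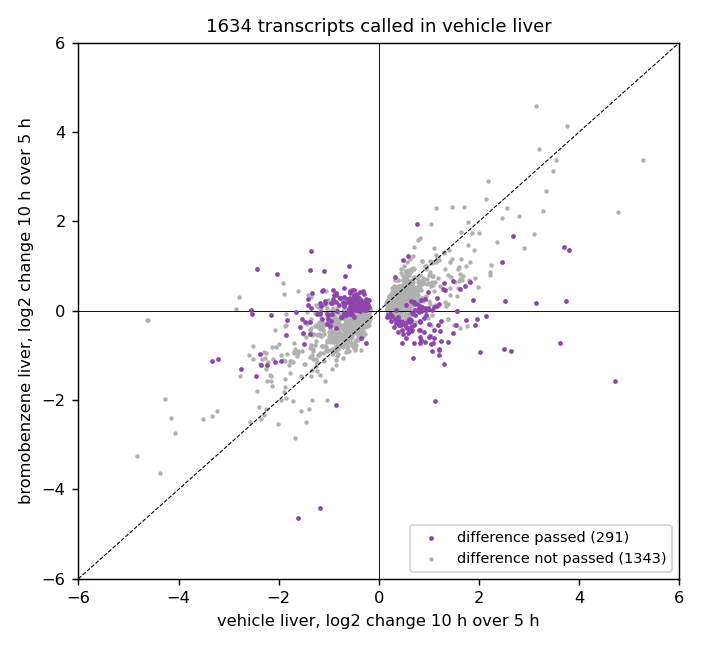
Log2 change at 10 h over 5 h in bromobenzene livers (vertical axis) against that in vehicle livers (horizontal axis), for the 1634 transcripts called in vehicle livers. The 291 whose difference passed the test are coloured, the dashed line marks equal change, and most points lie in the quadrants of equal sign.

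In kidney, 1137 of 20004 transcripts differed between 10 h and 5 h after vehicle (5.68%), 576 higher (2.88%) and 561 lower (2.80%). The kidneys are from the same rats as the livers by the series description, so they are not independent animals. Of 744 liver risers tested in kidney, 117 were called higher (15.7%), 16 lower and 611 neither, and their median log2 change there was 0.06. Of 854 liver fallers, 85 were called lower (9.95%), 14 higher and 755 neither, with a median of -0.06. The shared transcripts made up 20.3% of the kidney risers and 15.2% of the kidney fallers. With scaling by library totals alone, the kidney calls split as 817 higher and 386 lower, around a median log2 change of 0.03 over all tested. The shared risers then numbered 151 and the shared fallers 67.

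The difference between the organs was tested over 14079 transcripts with a mean of at least 1 CPM in each organ, and passed for 1949 of them (13.8%), positive for 1015 (7.21%) and negative for 934 (6.63%) as liver minus kidney. The fit treats the organs as independent libraries, since the labels do not say which liver and kidney share a rat, and a fit blocked by rat was not run. It passed for 464 of 716 liver risers and 488 of 788 liver fallers, again chosen for their change in liver. The median log2 change of those 464 risers was 0.52 in liver and 0.00 in kidney, and that of the 488 fallers was -0.59 in liver and 0.00 in kidney.

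All 4 named transcripts changed in kidney in the same direction as in liver. The risers changed there by 2.72 (ENSRNOT00000056322.3) and 1.70 (ENSRNOT00000036051.6), and the fallers by -2.84 (ENSRNOT00000046313.4) and -2.32 (ENSRNOT00000059571.2), on the log2 scale. The 4 were chosen for large changes in vehicle liver, so a larger change there is partly fixed by the choice and the p-values are a description. The changes were larger in liver, with log2 differences of 2.57, 2.11, -1.99 and -2.06 in the same order (edgeR adjusted p = 0.00458, 0.00211, 0.000551 and 4.51e-06). At 10 h ENSRNOT00000056322.3 had a median of 11.9 TPM in liver and 11.5 TPM in kidney, and at 5 h it had 0.186 TPM in liver against 1.19 TPM in kidney. ENSRNOT00000046313.4 had a median of 0.354 TPM in liver and 1.29 TPM in kidney at 10 h, and 10.4 TPM in liver and 8.32 TPM in kidney at 5 h.

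A set of 65 transcripts rose in bromobenzene livers, vehicle livers and vehicle kidneys alike, and 41 fell in all of these. The median log2 change of the 65 was 0.80 in bromobenzene livers, 0.94 in vehicle livers and 0.38 in vehicle kidneys. That of the 41 was -0.86 in both sets of livers and -0.43 in kidneys. Called in the same direction in neither bromobenzene livers nor kidneys were 430 risers and 586 fallers, which include those called the opposite way there or not tested in kidney. Of the 142 risers of at least 2-fold, 60 also rose in bromobenzene livers, 53 in kidneys and 31 in both, and 60 in neither. Of the 212 fallers of at least 2-fold, 91 also fell in bromobenzene livers, 29 in kidneys and 19 in both, and 111 in neither. Over all tested transcripts, 5.53% were called higher and 4.90% lower in bromobenzene livers, and 2.88% and 2.80% in vehicle kidneys. The 2 liver contrasts share a fit, and by the series description the vehicle kidneys are from the same rats as the vehicle livers. Across transcripts, which are not independent replicates, the log2 changes of the 1634 in bromobenzene and vehicle livers had Pearson's r = 0.67 and Spearman's rho = 0.63. Those of 1598 in liver and kidney had r = 0.41 and rho = 0.43.

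Single vehicle livers were placed on lists of transcripts that changed with time in other libraries. The bromobenzene lists come from the fit that the vehicle livers share. From the mean log2 CPM of the 969 transcripts higher at 10 h in bromobenzene livers, the mean of the 860 lower ones was subtracted, and this score was set to 0 at the mean of the 5 h vehicle livers. The 10 h vehicle livers scored from 0.56 to 0.71 with a median of 0.64, and the 5 h vehicle livers from -0.14 to 0.25 with a median of 0.00. The 2 times did not overlap. The 5 h replicate 3 had the 0.25, and the next of its group was at 0.05. On the lists from kidney, with 531 risers and 507 fallers that could be scored in liver, the 10 h livers ranged from 0.20 to 0.80 with a median of 0.51 and the 5 h livers from -0.40 to 0.17 with a median of 0.05. These did not overlap either, but the lowest 10 h liver, replicate 4, and the highest 5 h liver, replicate 2, lay close together at 0.20 and 0.17. Scores over chosen lists carry no test.

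**Figure D5:**
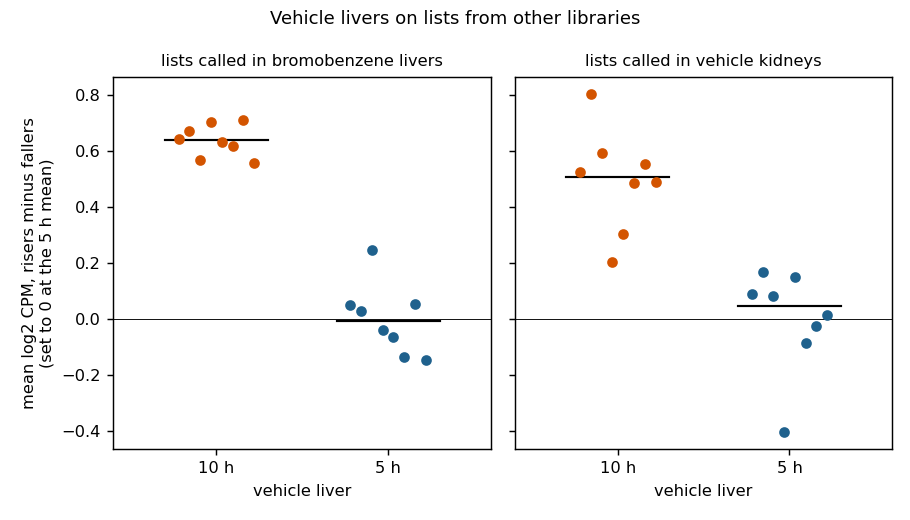
Score of each vehicle liver (points, 8 at 10 h on the left and 8 at 5 h on the right of each panel, with the median as a line) on lists of transcripts that changed with time in bromobenzene livers (left panel) or vehicle kidneys (right panel). The score is a difference of mean log2 CPM, and the 10 h livers lie above the 5 h livers in both panels.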

How the data were processed

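Polyadenylated RNA was sequenced as stranded libraries of 150-base read pairs, per the labels' protocols. These mention cells in culture, whereas the tissue label is liver. The submitters' processing notes name kallisto 0.42.4 as the tool and Rnor_6.0 as the build, and no source used here gives the annotation release. The authors deposited estimated counts, which are unnormalized and need not be whole. The TPM values were deposited beside them, corrected for effective length and scaled to a fixed sum per library. The deposited transcript lengths (other columns) were used for the 4 classes of length. Reads shared by isoforms or paralogs are divided by kallisto, so their single levels are uncertain. No sequences are printed, since no ID matched the tables used.

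Groups came from the tissue, time and agent labels, and replicate numbers follow the order of records. Estimated counts were rounded, and the edgeR 4.0.16 quasi-likelihood test (R 4.3.3, TMM scaling, robust fits) was run on transcripts that filterByExpr kept at a minimum count of 10 and a minimum total of 15. All 32 livers shared a fit, all 32 kidneys another, and the organs were compared in a fit of the 32 vehicle libraries with no block for the rat. Alternatives used DESeq2 1.42.0 and limma 3.58.1. The fit was tested on simulated data first. There it called 38 of 99 transcripts changed by 1.5-fold and 71 of 99 changed by 2-fold, all in the right direction. Beside these 38 and 71 right calls it called 9 unchanged transcripts, of 17240 tested in all. The simulated transcripts were drawn independently and with no length trend between libraries, unlike the data. Single values per library were compared over all 12870 splits of 16. Liver- and kidney-enriched transcripts differed at least 16-fold on mean log2(CPM + 0.5), with at least 5 CPM, over bromobenzene libraries. Depth ranged from 17.7 to 26.6 mega-counts per vehicle liver library. Reads carry no molecular identifiers, so counts need not be independent molecules. All 56 pairs of libraries within a time differed well beyond counting noise (chi-square per degree of freedom at least 17.7).

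The planned rule for named genes also asked for a symbol, which no ID has. The named transcripts had an adjusted p under 0.05, a mean of at least 5 CPM in the vehicle livers and at least 7 of 8 livers of 10 h on 1 side of the 5 h median, and were the 2 with the largest rise of 650 and the 2 with the largest fall of 640. The members, lists and tests were chosen with earlier results of these data known. Labels do not say that libraries are separate animals beyond the series description of 32 rats. The edgeR p-values set a change against the spread between libraries of the whole fit, which for liver includes bromobenzene livers.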

Additional observations from a re-analysis of the deposited data

Results flagged for a closer look

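Gaps within a group of 8 livers were examined in 30 groups of values, of which chance marks about 1 in 20, and 4 stood out. Replicate 3 of the 5 h livers held 3.60% of its TPM in transcripts that rose at 10 h, against at most 3.07% in the other 5 h livers. Replicate 8 of the 10 h livers held 2.37% in transcripts that fell, against at most 2.18% in the other 10 h livers. Replicate 4 of the 5 h livers scored -0.40 on the lists from kidney, where the next was at -0.08. Replicate 7 of the 5 h livers gave 51.4% of its counts to its 100 most abundant transcripts, against at most 48.8% in its group.

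Changes with time differed from those of other libraries for many transcripts. The difference from bromobenzene livers passed for 130 of 758 risers and 161 of 876 fallers, against 3.46% of all tested. The difference from kidney passed for 464 of 716 risers and 488 of 788 fallers, against 13.8% of all tested. These transcripts and the named ones were chosen for their change in vehicle liver, which enters the difference. The counts and values are therefore a description. Among the named transcripts, the difference from bromobenzene livers passed for ENSRNOT00000036051.6 (-2.44 on the log2 scale). The difference of liver from kidney passed for ENSRNOT00000056322.3 (2.57), ENSRNOT00000036051.6 (2.11), ENSRNOT00000046313.4 (-1.99) and ENSRNOT00000059571.2 (-2.06).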

How the results depend on the processing

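The 1634 calls numbered 1348 to 1723 with single vehicle livers left out, of which 1315 to 1522 were shared with the same direction. They numbered 2618 with limma voom and sample weights (1246 risers and 1372 fallers), 701 in the first run of library numbers alone (320 and 381) and 116 in the second (49 and 67), where fewer livers are compared. The other 10 alternatives stayed within 1.5 times. Among these, a fit of the 16 vehicle livers alone called 2261 (1073 risers and 1188 fallers). With library totals alone, bromobenzene livers gave 1835 higher and 488 lower transcripts and the difference between the sets of livers 505 and 177. The 4 named transcripts passed in all 29 alternatives, but log2(TPM + 1) gave ENSRNOT00000056322.3 3.16, ENSRNOT00000046313.4 -2.89 and ENSRNOT00000059571.2 -2.38. The difference in the share of the 100 most abundant transcripts ran from -1.77 to -1.05 percentage points with single livers left out, and was -0.81 in the first run and -2.63 in the second, where no exact p can fall under 0.1. Its p was 0.05 or higher in 11 of 18 alternatives. Without 5 h replicate 4 the difference in transcripts detected was -296.7 (exact permutation p = 0.0381). The length trend was added after the data were seen. Sums per gene were not run, since no ID was paired with a gene. No paired analysis was possible because the labels carry no replicate numbers that pair the livers of the 2 times, which came from different rats.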
